A study of Mus musculus with 12 samples.

Results

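Mitosis and G2/M genes encode the proteins that carry a cell from the end of DNA replication through chromosome segregation and cytokinesis. The 53 genes described here were taken by symbol from the mitotic kinases, kinetochore, spindle, cytokinesis and condensin genes. All 53 were found among the 31091 genes of the P3 expression table. All 53 also passed the filter, a mean over the 6 libraries of 1 FPKM or more (fragments scaled to gene length and to the counted reads of the library). The lowest of their means was 6.92 FPKM, that of Anln. Each library held between 1289 and 37620 reads for each of these genes.

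RNA was sequenced from granule cell progenitors of Znhit3 conditional knockout (cKO) mice, 3 samples at postnatal day 3 (P3), and from the same cells of WT mice, here called control, 3 samples at P3. The series also holds 6 samples at postnatal day 6, which were not analysed here. The Cre driver, the cells in which it acts, the floxed allele, the number of animals behind a sample and their sex are not stated in the labels. The labels do not say that replicates came from separate animals, so the p-values reflect only how much these samples vary, and that variation may be technical. The libraries held 29119803 to 40281292 counted reads in cKO and 32278245 to 52961445 in control. Znhit3, whose product takes part in the assembly of box C/D snoRNPs, had 4.03, 4.01 and 4.57 FPKM in the cKO libraries, against 9.15, 8.62 and 8.58 FPKM in the control libraries (exact two-sided permutation p = 0.1, the smallest that 3 against 3 samples allow). Among 14 progenitor markers none was at 0 in all libraries, and the defining factor Atoh1 averaged 35.0 ± 2.1 FPKM in cKO and 37.5 ± 3.3 FPKM in control (SD, n = 3 each). The markers as a set were not equal between groups. In the limma test described below 14.3% of them were called higher and 21.4% lower, against 13.4% and 5.74% of all tested genes. Their summed level was 1024 to 1076 FPKM in cKO and 1217 to 1301 FPKM in control.

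Granule cell progenitors are the precursors of cerebellar granule neurons and divide in the external granule layer after birth, with Sonic hedgehog as their main mitogen. Entry into mitosis is driven by the kinase Cdk1 bound to A and B cyclins. Segregation then waits for the spindle assembly checkpoint, which holds back Cdc20, the activator of the anaphase-promoting complex (APC/C), until every kinetochore is attached to the spindle. Transcripts of most of these genes peak in G2 and mitosis and are low in cells that have left the cycle. Their promoters often carry a cell cycle genes homology region (CHR), the binding site of the MuvB complex, and CCAAT boxes, the binding sites of NF-Y.

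Most mitosis and G2/M transcripts lay slightly lower in cKO progenitors, and few of them passed the test singly. Of the 53 genes, 7 fell, 1 rose and 45 were not called. The genes that fell were Birc5, Cdc20, Ncapd2, Ccnb2, Ccna2, Tpx2 and Ube2c, which stood at 79.5% to 89.4% of the control mean. The gene that rose was Ckap2, at 122% of the control mean. Calls rest on limma, run on log2(FPKM + 1) for all 13538 genes that passed the filter, with a Benjamini-Hochberg adjusted p under 0.05 as the threshold. That fit called 19.1% of all tested genes, 13.4% of them higher and 5.74% lower, so 15.1% of the mitosis and G2/M genes were called, and 13.2% were lower. The overall share of called genes was therefore not above the background, and the balance of directions was the other way round. In bulk RNA of this kind, fewer dividing cells and less mitotic RNA per cell cannot be told apart. Of all tested genes 1813 were higher and 777 lower, a split that became 2289 and 522 with TPM scaling, 1083 and 823 with quantile normalization, 1911 and 1660 with voom and 1167 and 1038 after removal of a length trend. The count of mitosis and G2/M genes that fell was 23, with 1 rise, when voom was run on the reads recovered from the FPKM values. There 12.3% of all tested genes were lower and 14.1% higher. With quantile normalization 2 of the 53 genes fell and 2 rose, where 823 of 13538 tested genes were lower. The share of falls was not above that of all tested genes in that fit. TPM scaling gave 4 falls and 2 rises among the 53 genes. The authors' deposited table had 28 of the 53 genes lower and 1 higher at an adjusted p under 0.05, against 11.6% lower and 11.4% higher of the 16021 genes with an adjusted p under 1.

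The shift was small. The median difference of the 53 genes was -0.08 (log2(FPKM + 1), cKO minus control), against a median of 0.03 over all tested genes. Their quartiles were -0.14 and -0.01, against -0.07 and 0.15 for all tested genes. The difference was below 0 in 40 of 53 genes, or 75.5%, against 42.1% of all tested genes. In 20 genes, or 37.7%, the 3 cKO values were each below the lowest control value, against 13.2% of all tested genes, and in 4 genes, or 7.55%, each was above the highest control value, against 27.3%. The 4 were Ckap2, Hmmr, Smc2 and Kif20a, of which only Ckap2 was called. The authors' deposited table had a median log2 fold change of -0.14 for the 53 genes. Its median was -0.0047 over the genes with an adjusted p under 1 and -0.015 over the genes tested here.

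**Figure D1:**
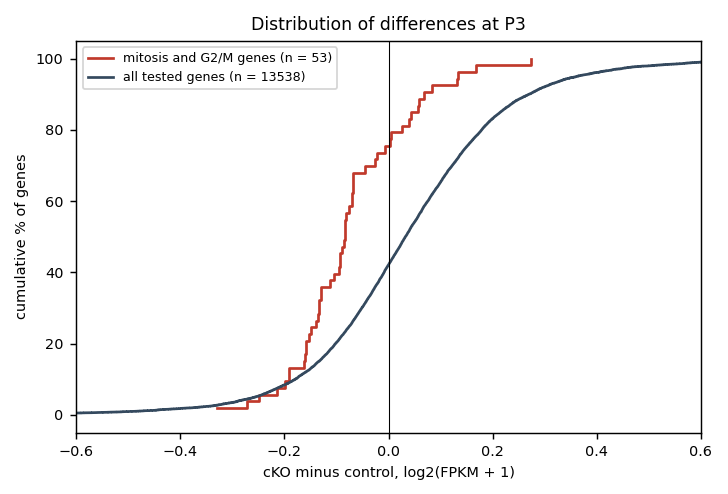
Cumulative share of genes (%) by the log2(FPKM + 1) difference, cKO minus control, for the 53 mitosis and G2/M genes (red) and all 13538 tested genes (dark), with the axis cut at 0.6 on either side. The red curve reaches 75.5% at 0 where the dark one reaches 42.1%, so that more of the 53 genes than of all genes lie on the lower side.

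Summed over the 53 genes, the level was 1703, 1688 and 1714 FPKM in cKO libraries 1 to 3, against 1855, 1831 and 1802 FPKM in control libraries 1 to 3. The cKO sums all lay below the control sums. Set against the control mean of each gene, 39, 42 and 38 of the 53 genes were below it in the cKO libraries, and 17, 24 and 41 in the control libraries. Control replicate 3 therefore stood nearest to the cKO libraries, with a median of -0.04 relative to the control mean, against -0.10, -0.09 and -0.07 in the cKO libraries and 0.03 and 0.01 in the other control libraries. The medians over all tested genes were between 0.03 and 0.04 in the cKO libraries and between -0.004 and 0.003 in the control libraries. Leaving out a library changed the number of the 53 genes that fell to 6 without cKO replicate 1, 2 without cKO replicate 2 and 3 without cKO replicate 3. It was 4 without control replicate 1, 2 without control replicate 2 and 4 without control replicate 3. Lower calls over all tested genes dropped too, from 777 to 701, 348 and 444 without cKO replicates 1 to 3. They numbered 669, 372 and 434 without control replicates 1 to 3.

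**Figure D2:**
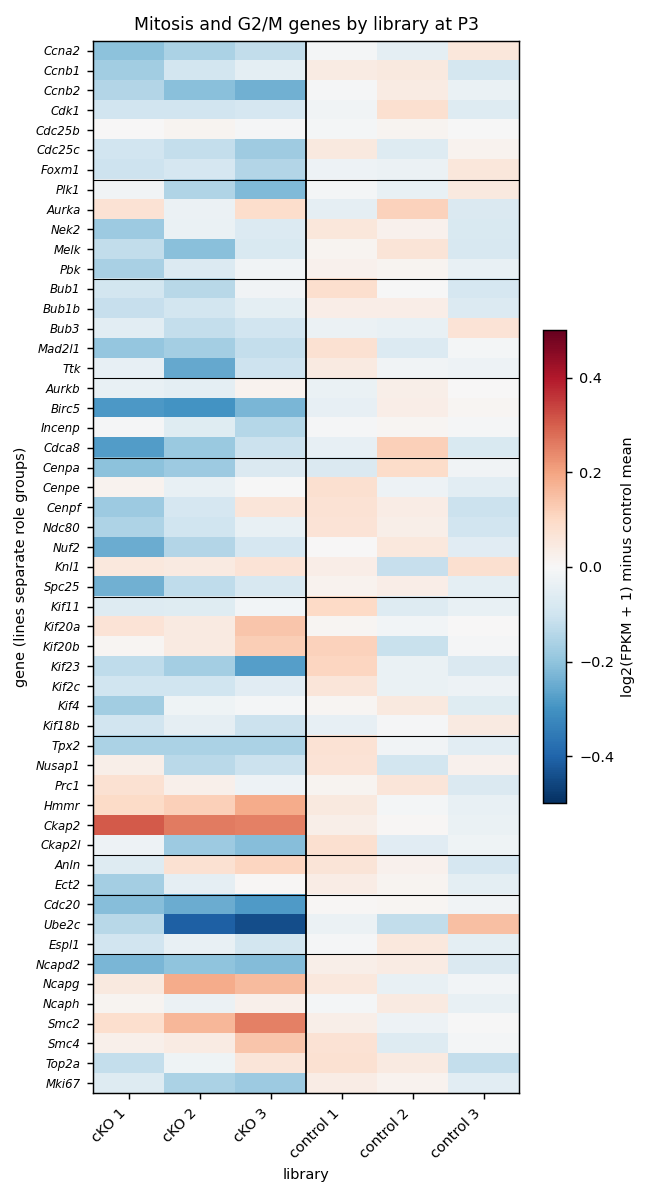
Level of each of the 53 genes in each library as log2(FPKM + 1) minus the control mean of that gene (colour scale from -0.5 to 0.5), with the 3 cKO libraries left of the 3 control libraries and lines between role groups. Blue prevails in the cKO columns, with 39, 42 and 38 genes below the control mean, while Ckap2, Hmmr and Smc2 are red in every cKO library.

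Markers of other cells moved with genotype in the same libraries. For comparison with the counts below, 13.4% of all tested genes were called higher and 5.74% lower. Of 18 markers of differentiating granule neurons, 15 were tested and 11 fell, with a summed level of 735 to 748 FPKM in cKO and 923 to 969 FPKM in control. Of 14 progenitor markers 2 rose and 3 fell, with sums of 1024 to 1076 FPKM in cKO and 1217 to 1301 FPKM in control. GABAergic interneuron markers rose in 9 and fell in 1 of 10 tested (153 to 175 FPKM in cKO, 110 to 122 FPKM in control), and endothelial markers rose in 13 of 14 (267 to 282 FPKM in cKO, 153 to 165 FPKM in control). Pericyte markers rose in 7 of 7 tested, oligodendrocyte lineage markers in 9 of 11, microglia markers in 7 of 12, astroglia markers in 6 of 12 and erythroid markers in 4 of 5. Their sums in cKO and in control were 106 to 110 and 72.5 to 72.7 FPKM for pericytes, 198 to 216 and 157 to 162 FPKM for oligodendrocytes, 329 to 374 and 270.9 to 271 FPKM for microglia, 1405 to 1495 and 1317 to 1357 FPKM for astroglia, and 1656 to 1887 and 1211 to 1476 FPKM for erythroid cells. Choroid plexus and ependyma markers fell in 6 and rose in 1 of 11 tested (673 to 750 FPKM in cKO, 1382 to 1469 FPKM in control). Of 8 listed erythroid markers, 7 were found among the measured genes. No marker that was found was at 0 in all libraries, and the part of these shifts in the mitotic differences was not tested.

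Among the genes of mitotic entry, both called genes were cyclins. Ccnb2, which encodes cyclin B2, had 74.4, 71.2 and 69.5 FPKM in the cKO libraries, against 82.0, 84.7 and 80.5 FPKM in the control libraries, with no overlap between groups. Its log2 difference was -0.20 ± 0.04 (SE, limma adjusted p = 0.020). Ccna2, which encodes cyclin A2 of S phase and G2, had 62.9, 65.1 and 66.6 FPKM in cKO, against 72.2, 70.3 and 75.7 FPKM in control. Here too every cKO value was below every control value, with a log2 difference of -0.16 ± 0.05 (SE, limma adjusted p = 0.042). Both calls were close to the threshold: over 17 alternatives the adjusted p ran from 0.0016 to 0.11 for Ccnb2 and from 0.0027 to 0.25 for Ccna2. Ccna2 passed in none of the 6 fits that left out a library. Reads of Ccnb2 may be shared with the pseudogene Ccnb2-ps, which averaged 3.34 FPKM, and Ccna2 overlaps Exosc9 on the opposite strand by 863 bases.

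The other entry genes were not called. Cdk1, the mitotic kinase itself, averaged 32.2 ± 0.14 FPKM in cKO and 34.4 ± 1.9 FPKM in control (SD, n = 3 each), and its groups did not overlap. Ccnb1, the main cyclin B of mitosis, averaged 55.4 ± 2.4 FPKM in cKO and 59.6 ± 3.2 FPKM in control, with overlap. Foxm1, a transcription factor that activates G2/M genes, averaged 28.8 ± 0.65 FPKM in cKO and 31.2 ± 1.1 FPKM in control. Cdc25c, a phosphatase that activates Cdk1, averaged 9.34 ± 0.31 FPKM in cKO and 10.3 ± 0.45 FPKM in control. All 3 values of Foxm1 and of Cdc25c in cKO were below the control values. The related phosphatase gene Cdc25b stood apart from these genes, at 33.6 ± 0.24 FPKM in cKO and 33.5 ± 0.28 FPKM in control.

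**Figure D3:**
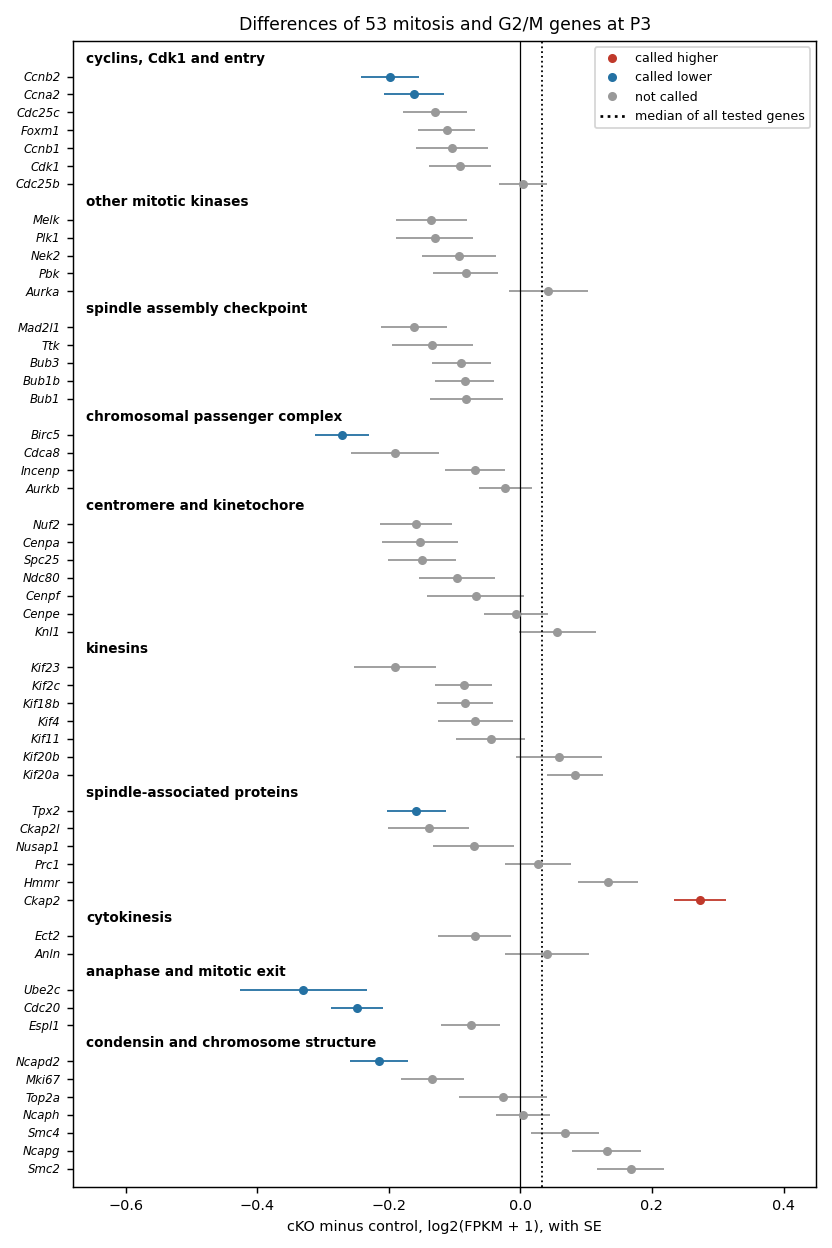
Log2(FPKM + 1) difference, cKO minus control, with its SE (n = 3 libraries per group) for each of the 53 genes, grouped by role and sorted within a role, with called genes in colour and the median of all tested genes, 0.03, as a dotted line. The 7 blue genes lie between -0.33 and -0.16 and the red gene Ckap2 at 0.27, and all 5 spindle checkpoint genes lie below 0 without a call.

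Other mitotic kinase genes gave no call. Pbk, a mitotic MAP kinase kinase-like gene and the most abundant of them, had 85.0, 90.7 and 94.0 FPKM in cKO, against 96.8, 96.2 and 92.7 FPKM in control, and the groups overlapped. Plk1, the Polo-like kinase of mitotic entry and spindle assembly, averaged 42.8 ± 3.2 FPKM in cKO and 46.9 ± 1.4 FPKM in control (SD, n = 3 each), with 46.3 FPKM in cKO replicate 1 and 42.1 and 40.1 FPKM in the other cKO libraries. It passed the test without cKO replicate 1 and with voom. Aurka, the Aurora kinase of the spindle poles, averaged 27.4 ± 1.2 FPKM in cKO and 26.6 ± 2.0 FPKM in control. The differences of Nek2, a centrosomal kinase gene, and Melk were -0.09 and -0.14. Melk was called lower with voom. Plk1, Melk and Pbk were lower in the authors' deposited table, at an adjusted p under 0.05.

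The spindle assembly checkpoint genes Bub1, Bub1b, Bub3, Mad2l1 and Ttk all had differences below 0, from -0.16 to -0.08, and none was called. Bub1b, which encodes the checkpoint protein BubR1 and was the most abundant of them, had 36.4, 37.0 and 38.2 FPKM in cKO, against 40.4, 40.5 and 37.6 FPKM in control. The groups overlapped only through control replicate 3. Mad2l1, which encodes the Mad2 protein that binds Cdc20, came closest to the threshold. It had 13.3, 13.5 and 14.0 FPKM in cKO, against 16.2, 14.6 and 15.2 FPKM in control, without overlap (limma adjusted p = 0.058). Mad2l1 was called lower in 3 of 17 alternatives. The authors' deposited table had Bub1b, Bub3, Mad2l1 and Ttk lower, at an adjusted p under 0.05.

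In the chromosomal passenger complex, which corrects attachments and guides cytokinesis, 1 of 4 subunit genes fell. Birc5, which encodes survivin, had 26.5, 26.3 and 27.6 FPKM in cKO, against 31.6, 33.3 and 32.7 FPKM in control. The gap between the groups exceeded the spread within each, and the log2 difference was -0.27 ± 0.04 (SE, limma adjusted p = 0.0051). It passed under all 17 alternatives, with adjusted p from 0.00012 to 0.030. The gene of its partner Cdca8 (borealin) averaged 25.4 ± 1.6 FPKM in cKO and 29.1 ± 2.2 FPKM in control (SD, n = 3 each), without overlap and with an adjusted p of 0.080 in the limma fit. Cdca8 was called lower in 3 of 17 alternatives and was lower in the authors' deposited table, at an adjusted p under 0.05. The scaffold gene Incenp had 41.2, 39.7 and 37.4 FPKM in cKO, against 41.2, 41.7 and 41.3 FPKM in control, and the kinase gene Aurkb averaged 40.0 ± 0.99 FPKM in cKO and 40.7 ± 0.89 FPKM in control. The difference between Birc5 and the other subunits was not tested.

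No centromere or kinetochore gene was called. Spc25, a subunit of the Ndc80 complex that binds microtubules, was the most abundant, with 31.6, 34.2 and 35.4 FPKM in cKO, against 37.9, 38.4 and 36.2 FPKM in control. Nuf2 of the same complex averaged 17.4 ± 1.1 FPKM in cKO and 19.5 ± 0.79 FPKM in control (SD, n = 3 each), and both genes had no overlap and an adjusted p of 0.079 or 0.080 in the limma fit. Ndc80 itself averaged 8.72 ± 0.40 FPKM in cKO and 9.39 ± 0.60 FPKM in control, with overlap. Cenpa, the centromeric histone gene, averaged 22.6 ± 1.2 FPKM in cKO and 25.2 ± 1.5 FPKM in control. The large kinetochore proteins encoded by Cenpe, Cenpf and Knl1 had differences of -0.01, -0.07 and 0.06, and their groups overlapped. Spc25, Nuf2 and Cenpa were called lower with voom and were lower in the authors' deposited table, at an adjusted p under 0.05.

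Kinesin genes were split in direction and none was called. Kif11, the motor that separates spindle poles, was the most abundant, with 27.8, 27.8 and 28.8 FPKM in cKO, against 31.2, 27.7 and 28.3 FPKM in control. Kif23, a centralspindlin motor of cytokinesis, averaged 13.8 ± 0.79 FPKM in cKO and 15.9 ± 1.1 FPKM in control (SD, n = 3 each), without overlap and with an adjusted p of 0.067 in the limma fit. Kif2c and Kif18b, which encode motors that act at microtubule ends, also lay wholly below control, with differences of -0.09 and -0.08. Kif20a, a motor of the midzone, had 18.7, 18.3 and 19.7 FPKM in cKO, against 17.9, 17.6 and 17.8 FPKM in control, so every cKO value was higher, at an adjusted p of 0.20 in the limma fit. Kif20a overlaps Cdc23 on the opposite strand by 2327 bases. Kif20b and the X-linked Kif4 had differences of 0.06 and -0.07, with overlap. Kif23 was called lower in 3 of 17 alternatives. Kif23, Kif2c and Kif18b were lower in the authors' deposited table, at an adjusted p under 0.05.

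Genes of spindle-associated proteins held changes in both directions. Ckap2, which encodes a microtubule-stabilising spindle protein, had 36.6, 35.4 and 35.2 FPKM in cKO, against 30.0, 29.5 and 28.7 FPKM in control. Every cKO value stood well above every control value, and the log2 difference was 0.27 ± 0.04 (SE, limma adjusted p = 0.0041), with a call under all 17 alternatives (adjusted p from 0.0014 to 0.023). Its paralog Ckap2l averaged 39.0 ± 2.8 FPKM in cKO and 43.0 ± 2.2 FPKM in control (SD, n = 3 each) and was not called. Ckap2l was called lower with voom and was lower in the authors' deposited table, at an adjusted p under 0.05.

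Tpx2, the activator of Aurora A at the spindle, had 59.4, 59.3 and 59.4 FPKM in cKO, against 69.7, 65.4 and 64.0 FPKM in control. The cKO libraries were almost equal and lay below all control libraries, with a log2 difference of -0.16 ± 0.04 (SE, limma adjusted p = 0.042). The call was lost in each of the 6 fits that left out a library, and over all 17 alternatives its adjusted p ran from 0.0029 to 0.20. Hmmr, which encodes a microtubule-binding partner of Tpx2, had 12.5, 12.7 and 13.4 FPKM in cKO, against 12.1, 11.6 and 11.3 FPKM in control. All cKO values were higher, at an adjusted p of 0.079 in the limma fit. Prc1, the bundler of midzone microtubules, and Nusap1 had differences of 0.03 and -0.07 with overlap. Of the cytokinesis genes, Ect2, the exchange factor that activates RhoA, had 18.5, 20.3 and 21.0 FPKM in cKO, against 21.5, 21.2 and 20.2 FPKM in control, and the scaffold gene Anln averaged 7.03 ± 0.50 FPKM in cKO and 6.81 ± 0.40 FPKM in control.

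**Figure D4:**
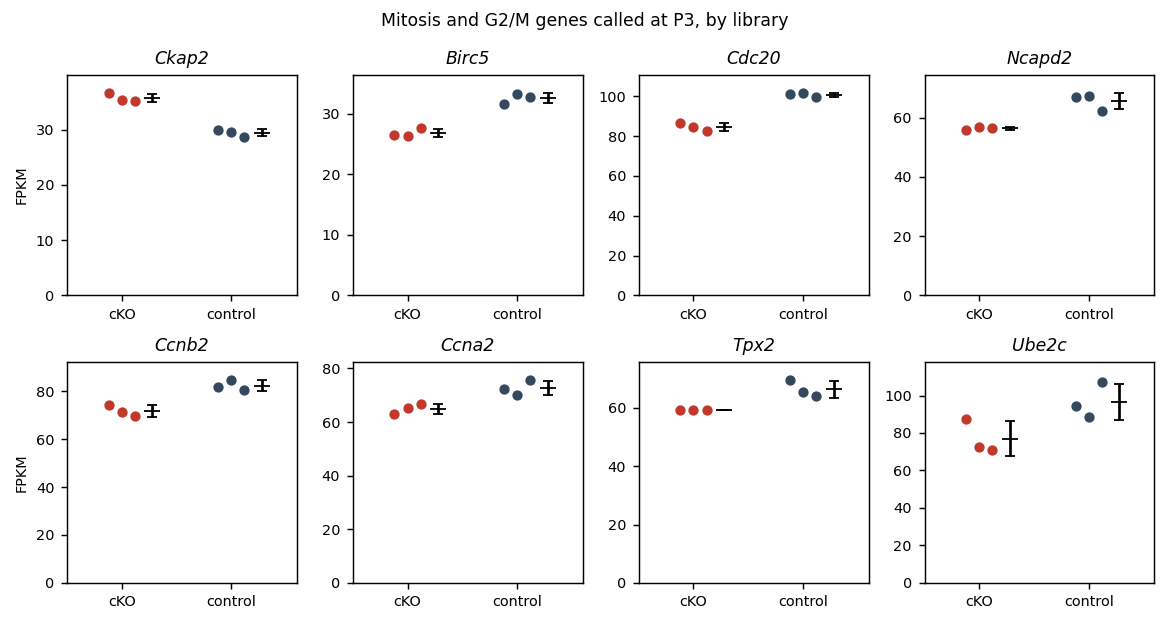
FPKM in each library of the 8 called genes, in order of p, with cKO left of control in each panel. Points are libraries, and the bar beside them is the mean with its SD (n = 3 per group). The cKO points lie above the control points for Ckap2 (35.7 against 29.4 FPKM on average) and below them for the other 7 genes, with the widest scatter for Ube2c.

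Besides Birc5, the genes with the lowest cKO share of control were Ube2c and Cdc20, whose products act with the APC/C, the ubiquitin ligase that ends mitosis. Cdc20 had 86.6, 84.5 and 82.6 FPKM in cKO, against 101.0, 101.4 and 99.4 FPKM in control, with a wide gap between the groups. Its log2 difference was -0.25 ± 0.04 (SE, limma adjusted p = 0.0057), and it passed under all 17 alternatives with adjusted p from 0.00013 to 0.034. Ube2c, the E2 enzyme that works with the APC/C, had 87.6, 72.4 and 70.7 FPKM in cKO, against 94.5, 88.5 and 107.3 FPKM in control. The libraries of each group were spread widely and the nearest values of the groups were 87.6 and 88.5 FPKM. Its log2 difference was -0.33 ± 0.10 (SE, limma adjusted p = 0.048), and the call was lost in 11 of 17 alternatives, with adjusted p from 0.0012 to 0.15. Espl1, which encodes separase, the protease that cuts cohesin, averaged 12.4 ± 0.31 FPKM in cKO and 13.1 ± 0.49 FPKM in control (SD, n = 3 each) and was not called. The authors' deposited table had Espl1 lower, at an adjusted p under 0.05.

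The condensin genes, whose products compact chromosomes, did not share a direction. Ncapd2, a subunit gene of condensin I, had 55.9, 56.9 and 56.3 FPKM in cKO, against 67.0, 67.4 and 62.4 FPKM in control. All cKO values were lower and close together, with a log2 difference of -0.21 ± 0.04 (SE, limma adjusted p = 0.015). The call was lost with quantile normalization, without cKO replicate 2 and without control replicate 2, with adjusted p from 0.00032 to 0.066 over 17 alternatives. Smc2, an ATPase subunit gene of both condensins, had 35.9, 38.2 and 40.6 FPKM in cKO, against 34.6, 33.3 and 33.8 FPKM in control. Every cKO value was higher, at an adjusted p of 0.056 in the limma fit, and the gene was called higher in 5 of 17 alternatives. Smc2 was not called with voom, and its adjusted p in the authors' deposited table was not under 0.05. The other condensin subunit genes Ncapg, Ncaph and Smc4 had differences of 0.13, 0.004 and 0.07, and their groups overlapped.

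Mki67, the gene of the proliferation marker Ki-67 and the most abundant of this group, had 70.1, 65.5 and 64.6 FPKM in cKO, against 75.2, 74.1 and 70.6 FPKM in control. All cKO values were lower, with a gap of less than 1 FPKM between cKO replicate 1 and control replicate 3, and an adjusted p of 0.087 in the limma fit. Mki67 was called lower in 3 of 17 alternatives and was lower in the authors' deposited table, at an adjusted p under 0.05. Top2a, the topoisomerase of chromosome decatenation, averaged 68.1 ± 4.3 FPKM in cKO and 69.4 ± 5.0 FPKM in control (SD, n = 3 each), so its difference was smaller than the spread between replicates.

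Promoters of the falls with the smallest p, Birc5 and Cdc20, and of the rise, Ckap2, are shown so that they can be read for the letters by which G2/M promoters are known. RefSeq promoters (GRCm38.p6, 250 bases before to 50 after the first listed start) were matched for 44 of the 53 genes. They were searched on both strands for the CHR letters TTTGAA and TTCGAA and for CCAAT, and matches are in capitals in the sequences of Birc5 (chr11:117848987-117849286, plus strand), Cdc20 (chr4:118437294-118437593, minus strand) and Ckap2 (chr8:22185770-22186069, minus strand), each written 5′ to 3′ along the gene.
Birc5: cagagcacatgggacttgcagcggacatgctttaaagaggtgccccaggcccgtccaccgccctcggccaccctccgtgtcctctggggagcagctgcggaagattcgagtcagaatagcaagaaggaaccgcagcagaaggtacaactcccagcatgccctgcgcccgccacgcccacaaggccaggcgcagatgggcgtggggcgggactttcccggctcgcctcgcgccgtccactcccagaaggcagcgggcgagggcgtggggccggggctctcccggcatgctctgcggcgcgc
Cdc20: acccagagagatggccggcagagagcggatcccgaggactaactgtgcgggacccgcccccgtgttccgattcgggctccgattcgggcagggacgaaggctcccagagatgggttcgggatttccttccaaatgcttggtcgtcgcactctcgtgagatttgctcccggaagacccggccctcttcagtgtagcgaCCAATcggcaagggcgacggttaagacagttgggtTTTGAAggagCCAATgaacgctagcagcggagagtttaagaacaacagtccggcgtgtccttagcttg
Ckap2: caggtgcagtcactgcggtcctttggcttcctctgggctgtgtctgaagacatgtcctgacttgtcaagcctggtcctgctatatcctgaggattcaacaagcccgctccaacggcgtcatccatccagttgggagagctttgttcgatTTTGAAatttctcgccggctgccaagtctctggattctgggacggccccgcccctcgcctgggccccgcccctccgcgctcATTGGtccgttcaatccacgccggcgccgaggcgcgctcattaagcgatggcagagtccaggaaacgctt
The window of Cdc20 holds a CHR match between 2 CCAAT matches, and that of Ckap2 holds a CHR match and, nearer the start, a CCAAT match on the opposite strand. The Birc5 window holds none of these letters, and bases outside it were not searched.

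Across the 44 promoters, 35 or 79.5% held either CHR form, against 19.4% of 27025 promoters of all genes and 13.2% of 9892 promoters of genes tested here. CCAAT was found in 33 or 75.0%, against 37.9% of all promoters, and both kinds of letters in 30 or 68.2%, against 7.70%. Of 47 CHR matches 34 began within 50 bases of the start, and of 74 CCAAT matches 58 began in the 150 bases before it. The median difference was -0.08 in the 35 genes with a CHR match in the window and -0.10 in the 9 without one. Bases outside the window were not searched, so genes without a match may still have a CHR. A link between these letters and the difference was therefore not tested. Among the called genes with a promoter, Cdc20, Ube2c, Ncapd2 and Ccnb2 fell with a CHR match in the window and Ckap2 rose with one. Birc5 fell without a match in its window, which does not show that the gene lacks a CHR. The called genes Ccna2 and Tpx2 had no matched promoter.

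**Figure D5:**
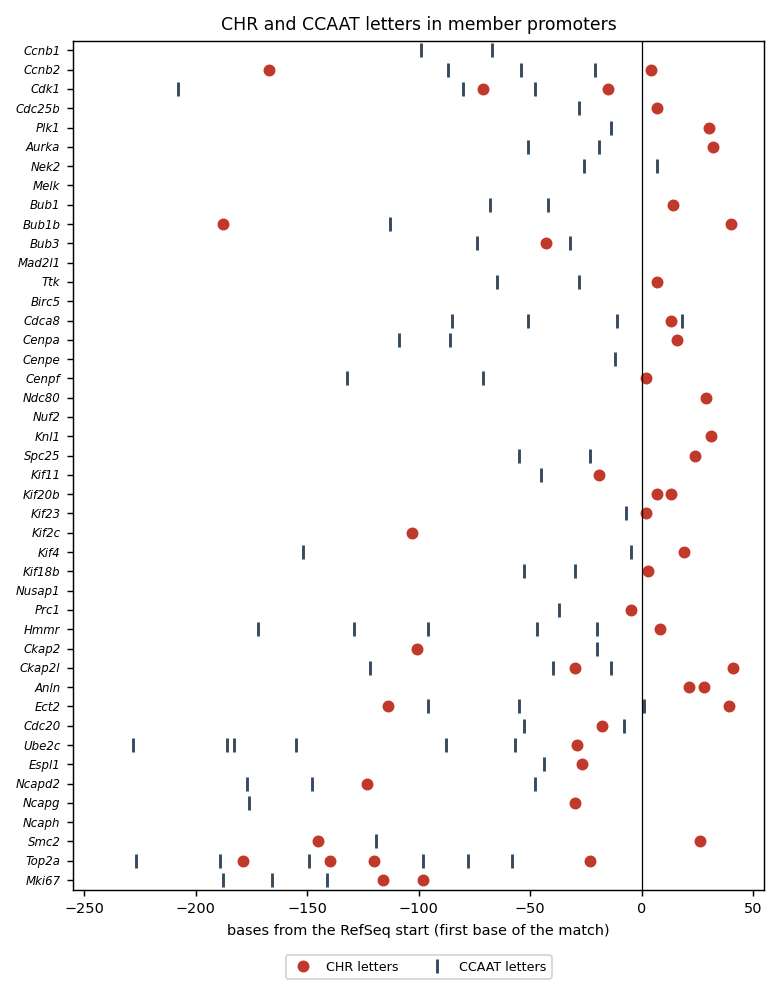
Position of CHR letters (red points) and CCAAT letters (dark bars) in the 44 matched promoters, as the first base of each match in bases from the RefSeq start, both strands. CHR matches gather at the start, with 34 of 47 within 50 bases of it, and CCAAT matches lie upstream, with 58 of 74 in the 150 bases before it.

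The signed difference tended to be lower in more abundant and in shorter genes. Across the 53 genes the difference had a Spearman rho of -0.36 with the log2 mean FPKM and 0.24 with the log2 gene length, and across all 13538 tested genes of -0.27 and 0.26. The genes share libraries and are not independent, and both values are near those of all genes. The 17 shortest genes, of 1531 to 4217 bases, had a median difference of -0.13 and held 5 of the 7 falls and the rise, while the 17 longest, of 6267 to 15433 bases, had a median of -0.07 and 1 fall. When a length trend was removed from each library, 15 of the 53 genes fell and 1 rose, where 7.67% of all tested genes were lower, and the median difference was -0.13.

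A wider set of 109 mitosis genes outside the 53 gave 12 falls and 8 rises, 11.0% and 7.34%, against 5.74% lower and 13.4% higher of all tested genes, with a median difference of -0.05 against 0.03. The falls were Ube2s, Ska1, Cks1b, Cdca3, Kif22, Tacc3, Cks2, Cdkn3, Mad1l1, Bora, Hjurp and Dlgap5. Ube2s, the second E2 enzyme of the APC/C, had 37.3, 39.1 and 38.5 FPKM in cKO, against 47.3, 50.6 and 46.3 FPKM in control (limma adjusted p = 0.0040). Ska1, which encodes a kinetochore protein that tracks microtubules, had 10.0, 10.6 and 9.79 FPKM in cKO, against 12.8, 12.6 and 13.0 FPKM in control (limma adjusted p = 0.0041). Neither gene had overlap between groups, and both passed under all 17 alternatives.

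The rises in this set were Wee1, Ncapg2, Lin52, Cdc27, Mis12, Plk4, Lin9 and Wapl. Wee1, the kinase that inhibits Cdk1, had 18.9, 18.3 and 18.3 FPKM in cKO, against 14.5, 15.0 and 14.6 FPKM in control, a log2 difference of 0.31 ± 0.04 (SE, limma adjusted p = 0.0024). Ncapg2, a condensin II gene, had 8.89, 9.24 and 9.01 FPKM in cKO, against 7.21, 6.47 and 6.63 FPKM in control, a log2 difference of 0.37 ± 0.05 (SE, limma adjusted p = 0.0032). All cKO values of both genes were above all control values. Lin9 and Lin52 encode subunits of MuvB.

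By role, genes of entry and Cdk1 control in this wider set gave 4 rises and 4 falls of 18, centromere, kinetochore and checkpoint genes 1 rise and 3 falls of 35, spindle and cytokinesis genes 3 falls of 26, and cohesin, condensin II and exit genes 3 rises and 2 falls of 30. In that order, falls made up 22.2%, 8.57%, 11.5% and 6.67% of these groups, against 5.74% of all tested genes. Rises made up 22.2%, 2.86%, 0% and 10%, against 13.4%. For comparison, 50 DNA replication genes gave 2 rises (Orc1 and Timeless) and 2 falls (Tyms and Mcm7), 4% each against 13.4% higher and 5.74% lower of all tested genes, with a median difference of -0.02 and 26 genes below 0. The difference between the mitotic and the replication genes was not tested.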

How the data were processed

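Poly(A) RNA of granule cell progenitors was sequenced as dUTP-marked paired-end libraries, per the labels' protocols. Cutadapt 1.9, HISAT2 2.2.1, StringTie 2.1.6, DESeq2, edgeR and the build mm10 appear, with no role or order, per the submitters' processing notes. The annotation, and whether counting was by strand, is not given in the sources used here, so reads of genes that overlap on opposite strands cannot be told apart. This applies to 19 of the 53 genes.

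The authors deposited FPKM values for 31091 genes in 6 libraries. The cKO columns have a 2-letter prefix and were read as cKO because the other columns are named WT. Multiplied by the gene length in the table, every value was a whole number of reads within 0.02, which gave the depths. Besides these, the authors deposited a mean normalized signal over the libraries (headed baseMean), a log2 fold change with its error, a test score, a p-value and an adjusted p-value. Gene starts and ends equalled those of the GRCm38 annotation for 2 of the 53 genes, so no position from the table is printed.

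The test was limma 3.58.1 (R 4.3.3; trend on intensity, genotype as the single term, two-sided) on log2(FPKM + 1) of 13538 genes whose mean reached 1 FPKM, adjusted after Benjamini-Hochberg over all of them. The pseudocount makes a difference smaller than the log2 ratio for genes with low values. In simulated data for cKO against control with 50 changed genes per fold among 13538 genes, the fit recovered 52.0% at 1.25-fold, 90.0% at 1.5-fold, 98.0% at 2-fold and 100.0% at 3-fold. No library was a duplicate of another (chi-square per degree of freedom within groups from 4.38 to 9.71). The 17 alternatives were another pseudocount, other filters, other scalings, limma without trend, array weights, voom, a replicate block, removal of a length trend and leaving out each library.

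Values in every library were given by rule for the called genes and the most abundant of each role group, and also for Mad2l1, Kif20a, Hmmr and Smc2 and, in cKO, Plk1, which were chosen after their values were seen. Promoters were shown for the falls and the rise with the smallest p. Of other mitosis genes, the called ones were named and the 4 with the smallest p got values. The 53 genes are defined by symbol and not by a measured value, but they, the lists and the tests were chosen with earlier results of these data known.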

Additional observations from a re-analysis of the deposited data

How the results depend on the processing

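Ckap2, Birc5 and Cdc20 kept their calls under all 17 alternatives, and no called gene among the 53 changed sign. Of 901 values (53 genes under 17 alternatives), 41 lost a call, 40 gained one, and 34 changed sign without a call, in 10 genes. Of the 53 genes, the number called was 8 (1 higher, 7 lower). It was 5 (4 lower) with no filter on low values and 5 (4 lower) with limma without trend. It was 4 (2 higher, 2 lower) with quantile normalization and 18 (4 higher, 14 lower) with array weights. With voom it was 24 (23 lower), and after removal of a length trend 16 (15 lower). Over all 13538 tested genes, 777 were lower in the main fit, 685 with limma without trend and 823 with quantile normalization. Lower calls were 1173 with array weights, 1660 with voom and 1038 after removal of a length trend. Higher calls in these 6 fits, in the same order, were 1813, 1869, 1083, 2548, 1911 and 1167. TPM scaling gave 2 higher and 4 lower, and a mean of at least 5 FPKM gave 2 higher. The median difference was -0.046 with TPM scaling, -0.13 with voom and -0.13 after removal of a length trend. The cause was not tested.

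Of all tested genes 1813 were higher and 777 lower. The alternatives gave 1271 called (887 higher, 384 lower) with no filter, 1126 higher at a mean of at least 5 FPKM, 1083 higher with quantile normalization, 1167 higher after removal of a length trend, 1173 lower with array weights and 1660 lower with voom. Of the 109 other mitosis genes, 8 were higher and 12 lower. These were 5 and 6 with no filter, 5 higher with quantile normalization, 14 higher with array weights and 26 lower with voom. They were 7 lower with TPM scaling, and 5 higher and 21 lower after removal of a length trend.

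With a replicate block 1542 genes were called (1073 higher, 469 lower), 4 of the 53 (3 lower) and 5 higher and 7 lower of the 109. Same-numbered libraries had correlations of their deviations of -0.02, 0.04 and -0.10 for numbers 1 to 3, so no shared variation was seen by number. The labels do not say what a number stands for, and these correlations cannot exclude a shared origin. Leaving out each library in turn gave 1193 to 2170 called genes (845 to 1469 higher, 348 to 701 lower), 3 to 8 of the 53 (1 to 2 higher, 2 to 6 lower), 4 to 7 higher and 4 to 10 lower of the 109, and a median difference of -0.10 to -0.07. Znhit3 stayed lower in each, with differences of -0.96 to -0.89.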
